A study of Homo sapiens with 9 samples.

Results

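Of 19920 protein-coding genes among the 60715 genes counted, 24 had few or no reads in MDA-MB-231 cells labelled as carrying a potassium channel construct and were transcribed in every library of cells carrying the red fluorescent protein RFP. A gene was included if it had a mean under 0.5 CPM (counts of the gene per 1000000 counts of its library) in both channel groups and at least 2 CPM in each RFP library. SPARC, FKBP10, ENG, MMP2, KCNJ8, KCNQ3 and the MAGE genes were left out by name, and 5 of these (FKBP10, MAGEB2, ENG, MMP2 and KCNJ8) had the same pattern. The 24 genes were chosen by their measured levels in all 3 groups, so these levels and their folds against RFP are given below as a description, with no test.

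MDA-MB-231 is an established, mesenchymal breast cancer cell line of the triple-negative type. All cells were transduced with lentivirus and sorted by fluorescence. One group carried Kir2.1, the inward rectifier potassium channel encoded by KCNJ2, with the substitution Y242F and joined to EGFP (n = 3 libraries). A second was labelled Kv1.5, the voltage-gated potassium channel encoded by KCNA5, followed by T2A, a peptide that separates the products, a his tag and EGFP (n = 2, replicates 2 and 3; replicate 1 was not analysed here). The control carried RFP (n = 3), so the fluorescent protein differed along with the channel. The labels give separate biological replicates and do not say whether each was a separate transduction, so spread and p-values refer to these cultures. In bulk RNA, fewer cells transcribing a gene and less RNA of it per cell cannot be told apart.

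The 3 Kir2.1 libraries held 842, 1410 and 1216 CPM of KCNJ2, no library labelled Kv1.5 more than 0.0987 CPM, and no RFP library more than 0.0895 CPM. KCNA5 was at 0 counts in the pair of libraries labelled Kv1.5, so these are named by their label throughout. Whether they carried the channel under a sequence not counted as KCNA5, or not at all, cannot be told from the counts. Library totals lay between 30970235 and 42753422 counts, where 3 counts correspond to 0.0702 to 0.0969 CPM. All 7 marker genes fixed for the line were present in every group, and the estrogen and progesterone receptor genes ESR1 and PGR were at or near 0. Of the other genes listed as low for the line, the epithelial cadherin CDH1 stood at no more than 0.187 CPM, while the epithelial adhesion gene EPCAM stood at 7.93 to 25.5 CPM and the receptor gene ERBB3 at 2.34 to 5.05 CPM over the 8 libraries. The leukocyte marker PTPRC stood at no more than 0.138 CPM in a Kir2.1 library, 0.153 CPM in a library labelled Kv1.5 and 0.164 CPM in an RFP library, and CD3E was at 0 in all 8. The kidney and neural markers PAX2, LHX1 and NEFM summed to at most 0.0468 CPM in any library. The 7 basal epithelial markers summed to 3.77 to 12.2 CPM. Of these, the keratin KRT15 stood at 3.48 to 11.8 CPM and the cadherin CDH3 at 0.0857 to 2.33 CPM. The 4 fibroblast markers summed to 1.78 to 4.71 CPM, with the receptor gene PDGFRB at 0.271 to 4.06 CPM and LUM at 0.133 to 1.505 CPM. PECAM1, an endothelial adhesion gene, stood at 7.49 to 10.2 CPM in Kir2.1, 3.66 and 4.19 CPM in libraries labelled Kv1.5 and 1.29, 5.02 and 20.8 CPM in RFP, while the endothelial cadherin CDH5 stood at no more than 0.0762 CPM. VWF, the endothelial clotting factor carrier, had 6 counts in Kir2.1, 0 in the libraries labelled Kv1.5 and 32 in RFP (0.239 to 0.328 CPM in single RFP libraries). The part of KRT15, CDH3, PDGFRB, LUM, PECAM1 and VWF in the results was not tested.

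As background, the 24 genes do not form a known pathway. Many are used mainly by a specialised tissue: mast cells, lymphocytes, neurons, oligodendrocytes or the embryonic heart and trunk. Cancer lines commonly transcribe single genes of this kind out of place. A gene without transcription can be kept in that state by DNA methylation or by Polycomb proteins, and the density of CpG dinucleotides before a gene's start is one feature by which promoters differ in how they are controlled.

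The promoters of 4 of the genes are shown to make that feature visible: each is the 250 bases before the gene's start in RefSeq (GRCh38.p14), printed 5′ to 3′ on the gene's strand, with every CpG in capitals. TM4SF18 and CPA3, both on chromosome 3, represent promoters with almost no CpG. VAV1 has an intermediate number, and CLDN11 represents the CpG-dense promoters. TM4SF18 lies at chr3:149333637-149333886 on the minus strand, CPA3 at chr3:148865046-148865295, VAV1 at chr19:6772458-6772707 and CLDN11 at chr3:170418618-170418867, the last 3 on the plus strand.
TM4SF18: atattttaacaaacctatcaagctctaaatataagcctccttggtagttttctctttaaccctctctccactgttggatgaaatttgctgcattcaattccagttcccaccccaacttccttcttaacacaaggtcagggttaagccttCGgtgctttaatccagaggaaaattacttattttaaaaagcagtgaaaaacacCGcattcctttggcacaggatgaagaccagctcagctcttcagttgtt
CPA3: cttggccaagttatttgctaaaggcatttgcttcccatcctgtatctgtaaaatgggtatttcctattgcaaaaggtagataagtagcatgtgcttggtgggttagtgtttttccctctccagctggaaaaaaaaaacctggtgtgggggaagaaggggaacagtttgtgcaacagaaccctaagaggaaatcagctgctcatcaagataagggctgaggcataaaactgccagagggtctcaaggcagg
VAV1: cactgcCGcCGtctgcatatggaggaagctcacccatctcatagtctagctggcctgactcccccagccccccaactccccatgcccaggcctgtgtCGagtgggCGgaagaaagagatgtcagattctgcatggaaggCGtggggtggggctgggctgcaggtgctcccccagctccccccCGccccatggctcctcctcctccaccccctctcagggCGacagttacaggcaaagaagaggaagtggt
CLDN11: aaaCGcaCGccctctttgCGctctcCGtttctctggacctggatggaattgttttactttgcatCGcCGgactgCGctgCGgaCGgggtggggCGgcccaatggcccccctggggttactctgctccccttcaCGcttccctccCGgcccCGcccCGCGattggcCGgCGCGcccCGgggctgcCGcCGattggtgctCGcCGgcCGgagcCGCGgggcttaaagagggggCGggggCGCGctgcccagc
TM4SF18 held 2 CpGs in this stretch, CPA3 had 0, VAV1 had 7 and CLDN11 had 29. The values for all matched promoters follow after the expression data.

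Across the 24 genes, the mean level in Kir2.1 ran from 0 to 0.489 CPM with a median of 0.164 CPM, and the mean in the libraries labelled Kv1.5 from 0 to 0.455 CPM with a median of 0.0990 CPM. The mean in RFP ran from 2.63 to 28.8 CPM, with a median of 4.57 CPM. As a share of the RFP mean, the median gene kept 2.96% in Kir2.1 (0 to 15.1%) and 1.87% in the libraries labelled Kv1.5 (0 to 8.55%). Summed over the 24 genes, the Kir2.1 libraries had 5.97, 4.82 and 4.94 CPM, the libraries labelled Kv1.5 had 3.48 and 2.59 CPM, and the RFP libraries had 150, 177 and 189 CPM. The rule fixes the gap between the channel groups and RFP; between the channel groups it fixes none.

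**Figure D1:**
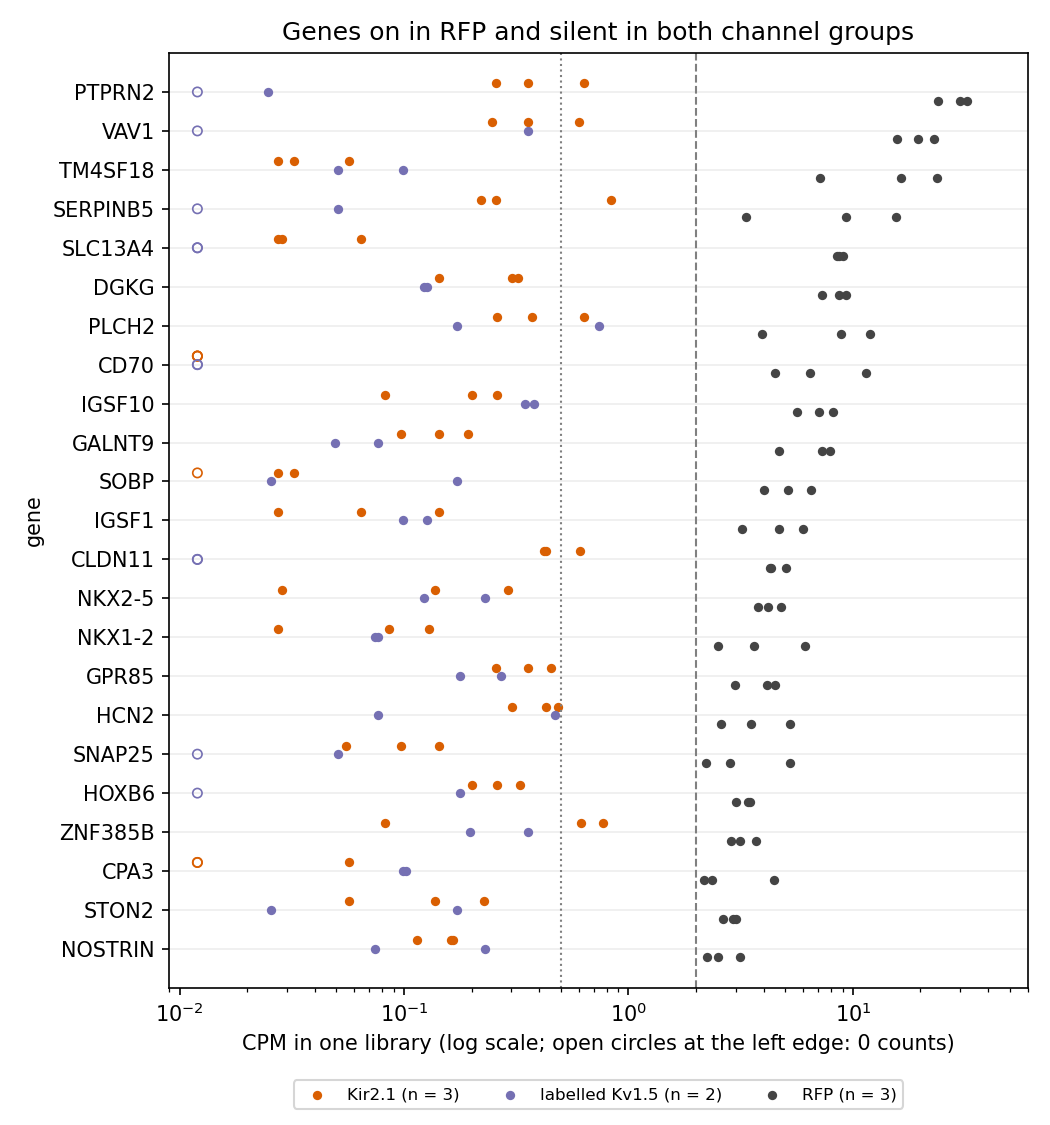
CPM of 23 of the 24 genes in each library on a log axis, in order of the RFP mean, with Kir2.1 in orange, the libraries labelled Kv1.5 in purple and RFP in dark grey. Open circles at the left edge are libraries with 0 counts, the dotted line is at 0.5 CPM and the dashed line at 2 CPM; single channel libraries reach 0.840 CPM at most, and single RFP libraries start at 2.18 CPM.

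Among genes of immune cells, VAV1 (ENSG00000141968.8, chromosome 19, 6772714 to 6857366 on GRCh38), a guanine nucleotide exchange factor that acts downstream of antigen receptors in blood cells, stood at 0.355, 0.248 and 0.5996 CPM in Kir2.1, at 0.356 and 0 CPM in libraries labelled Kv1.5, and at 15.8, 22.9 and 19.6 CPM in RFP. From pooled counts it was 48.1-fold lower in Kir2.1 (95% interval 35.3 to 67.2) and 110-fold lower in the libraries labelled Kv1.5 (65.4 to 202). Its relative VAV2, which is used in most tissues, stood at 60.5 ± 2.08 CPM in Kir2.1 (SD, n = 3), 40.5 ± 11.2 CPM in libraries labelled Kv1.5 (n = 2) and 67.5 ± 7.97 CPM in RFP (n = 3). VAV2 fell in the libraries labelled Kv1.5 (log2 change -0.66, edgeR adjusted p = 0.0399), a call lost without Kir2.1 replicate 2 or 3, Kv1.5 replicate 2 or RFP replicate 1 or 2.

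CD70 (ENSG00000125726.11, chromosome 19, 6583183 to 6604103), the ligand of the costimulatory receptor CD27, was the one gene of the set with 0 counts in all 5 channel libraries. It stood at 4.49, 6.46 and 11.5 CPM in RFP, from 818 counts. Taking 3 counts over the group as the floor, it was at least 245-fold lower in Kir2.1 and at least 191-fold lower in the libraries labelled Kv1.5. CPA3, the carboxypeptidase of mast cell granules, had 2 counts in Kir2.1, 8 in the libraries labelled Kv1.5 and 341 in RFP, where its lowest library held 2.18 CPM. The leukocyte marker PTPRC stood at no more than 0.164 CPM in any library.

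Among genes of secretory vesicles, neurons and excitable cells, PTPRN2 (ENSG00000155093.19, chromosome 7, 157539056 to 158587788), a phosphatase-like membrane protein of dense-core vesicles, was the highest of the 24 in RFP, also per kilobase of exon (5.97 CPM per kb, RFP mean). It stood at 0.355, 0.633 and 0.257 CPM in Kir2.1, at 0 and 0.0247 CPM in libraries labelled Kv1.5, and at 23.95, 30.2 and 32.4 CPM in RFP. It was 67.8-fold lower in Kir2.1 (50.2 to 93.8). In the libraries labelled Kv1.5 a single count gave a ratio of 2276 (408 to 89910).

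SNAP25, a SNARE protein of synaptic vesicle fusion, had 10 counts in Kir2.1, 2 in the libraries labelled Kv1.5 and 376 in RFP, with 2.22, 2.83 and 5.22 CPM in the RFP libraries. The more widely used SNAP23 stood at 47.2 ± 4.57 CPM in Kir2.1, 56.0 ± 8.19 CPM in libraries labelled Kv1.5 and 47.1 ± 3.05 CPM in RFP. HCN2, a hyperpolarization-activated cation channel, averaged 0.405 CPM in Kir2.1, 0.272 CPM in libraries labelled Kv1.5 and 3.79 CPM in RFP. GPR85, an orphan receptor of the brain, averaged 0.356, 0.225 and 3.88 CPM in Kir2.1, the libraries labelled Kv1.5 and RFP. STON2, an adaptor for synaptic vesicle endocytosis, averaged 0.140, 0.0990 and 2.86 CPM in the same order. SOBP, a nuclear protein needed for cochlear development in mice, stood at 0.0323, 0.0275 and 0 CPM in Kir2.1, at 0.0254 and 0.173 CPM in libraries labelled Kv1.5, and at 5.12, 4.00 and 6.53 CPM in RFP. HCN2 and GPR85 kept more of their RFP level in Kir2.1 (10.7% and 9.16%) than SNAP25 (2.87%), STON2 (4.90%) or SOBP (0.382%).

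Among membrane and adhesion genes, TM4SF18 (ENSG00000163762.7, chromosome 3, 149318498 to 149334414), a member of the transmembrane 4 L6 family, stood at 0.0323, 0.0275 and 0.0571 CPM in Kir2.1, at 0.0508 and 0.0987 CPM in libraries labelled Kv1.5, and at 7.11, 16.3 and 23.6 CPM in RFP. It was 384-fold lower in Kir2.1 (150 to 1412) and 200-fold lower in the libraries labelled Kv1.5 (91.7 to 546). These residual levels correspond to 4 and 6 counts, and the RFP libraries themselves differed 3.32-fold. Its neighbour and relative TM4SF1 was abundant in all groups, at 204 ± 37.3 CPM in Kir2.1, 137 ± 37.0 CPM in libraries labelled Kv1.5 and 243 ± 88.1 CPM in RFP (edgeR adjusted p = 0.534 and 0.0653 against RFP).

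CLDN11, the tight junction claudin of oligodendrocyte myelin and Sertoli cells, differed in residual level between the channel groups. It stood at 0.420, 0.606 and 0.428 CPM in Kir2.1, had no count in libraries labelled Kv1.5, and stood at 4.26, 5.02 and 4.30 CPM in RFP. It was 9.25-fold lower in Kir2.1 (6.91 to 12.6) and at least 120-fold lower in the libraries labelled Kv1.5. IGSF10 and IGSF1, immunoglobulin superfamily proteins of which IGSF1 is known from the pituitary, were both measured at low residual levels. IGSF10 stood at 0.258, 0.0826 and 0.1999 CPM in Kir2.1, at 0.381 and 0.345 CPM in libraries labelled Kv1.5, and at 8.19, 7.07 and 5.64 CPM in RFP. IGSF1 stood at 0.0646, 0.0275 and 0.143 CPM in Kir2.1, at 0.127 and 0.0987 CPM in libraries labelled Kv1.5, and at 3.20, 4.70 and 5.97 CPM in RFP. Between the channel groups, IGSF10 did not overlap, from 18 counts in Kir2.1 and 29 in the libraries labelled Kv1.5, and IGSF1 did. Other genes of the 24, such as PTPRN2, CLDN11 and DGKG, did not overlap either.

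Enzymes, a transporter and a serpin made up another group. SLC13A4 (chromosome 7, 135681237 to 135729258), a sodium-coupled sulfate transporter, was the steadiest gene of the set in the control: it stood at 0.0646, 0.0275 and 0.0286 CPM in Kir2.1, had no count in libraries labelled Kv1.5, and stood at 8.47, 9.04 and 8.68 CPM in RFP. It was 223-fold lower in Kir2.1 (86.8 to 820) and at least 232-fold lower in the libraries labelled Kv1.5. SERPINB5, known as maspin, was the least steady. It stood at 0.840, 0.220 and 0.257 CPM in Kir2.1, at 0.0508 and 0 CPM in libraries labelled Kv1.5, and at 15.6, 9.28 and 3.34 CPM in RFP, a 4.67-fold range within RFP. Its fold in Kir2.1 was 23.6 (17.4 to 32.8), 15.4 without RFP replicate 1 and 41.6 without Kir2.1 replicate 1.

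Among lipid signalling genes, DGKG, a diacylglycerol kinase that turns diacylglycerol into phosphatidic acid, stood at 0.323, 0.303 and 0.143 CPM in Kir2.1, at 0.127 and 0.123 CPM in libraries labelled Kv1.5, and at 8.65, 7.26 and 9.31 CPM in RFP. PLCH2, a phospholipase C that produces diacylglycerol, stood at 0.258, 0.633 and 0.371 CPM in Kir2.1, at 0.737 and 0.173 CPM in libraries labelled Kv1.5, and at 3.95, 8.86 and 11.9 CPM in RFP. PLCH2 was 17.6-fold lower in the libraries labelled Kv1.5 (12.6 to 25.3), 45.9-fold without Kv1.5 replicate 2 and 10.8-fold without Kv1.5 replicate 3. GALNT9, a glycosyltransferase that starts mucin-type O-glycans and is known from the brain, stood at 0.0969, 0.193 and 0.143 CPM in Kir2.1, at 0.0762 and 0.0493 CPM in libraries labelled Kv1.5, and at 7.32, 7.95 and 4.68 CPM in RFP. NOSTRIN, which controls the trafficking of endothelial nitric oxide synthase, was the lowest of the 24 in RFP and averaged 0.147 CPM in Kir2.1, 0.151 CPM in libraries labelled Kv1.5 and 2.63 CPM in RFP.

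The DNA-binding genes came from different developmental programs. NKX2-5 (chromosome 5, 173232109 to 173235357), the homeobox factor of the embryonic heart, stood at 0.291, 0.138 and 0.0286 CPM in Kir2.1, at 0.229 and 0.123 CPM in libraries labelled Kv1.5, and at 4.77, 4.19 and 3.79 CPM in RFP. NKX1-2, a homeobox gene of the embryonic tail region in mice, stood at 0.129, 0.0275 and 0.0857 CPM in Kir2.1, at 0.0762 and 0.0740 CPM in libraries labelled Kv1.5, and at 3.63, 2.51 and 6.12 CPM in RFP. HOXB6, which patterns the trunk, averaged 0.263 CPM in Kir2.1, 0.0889 CPM in libraries labelled Kv1.5 and 3.30 CPM in RFP. ZNF385B, a zinc finger gene, kept the most: 15.1% of its RFP mean in Kir2.1 and 8.55% in the libraries labelled Kv1.5. It stood at 0.613, 0.0826 and 0.771 CPM in Kir2.1, where replicate 2 lay far below the other two.

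Low counts limit these folds. Of the 120 values in single channel libraries, 17 were 0 and 51 were 3 counts or fewer, and all intervals and bounds cover counting error only. Leaving out each library in turn moved 20 of the 48 folds by more than 1.5 times under at least 1 omission, 6 of them in Kir2.1 and 14 in the libraries labelled Kv1.5, where a single library then remained. For VAV1 in the libraries labelled Kv1.5 the fold was 54.2 without replicate 3 and at least 260 without replicate 2. For PTPRN2 there it was at least 374 without replicate 3 and 1155 without replicate 2. The bounds of CD70, CLDN11 and SLC13A4 in the libraries labelled Kv1.5 became 94.3, 59.3 and 114 without replicate 3, and that of CD70 in Kir2.1 became 158 without replicate 2. For a group at 0 counts in all its libraries, the bound follows the library total that is left. These moves of CD70, CLDN11 and SLC13A4 are counted among the 20 and carry no information on replicate spread. The lowest fold was 4.59, for ZNF385B in Kir2.1 without its replicate 2.

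Between the channel groups the residual levels differed for several genes. The rule caps both groups at 0.5 CPM, so these are values with no test. Of the 24 genes, 8 had the higher mean in the libraries labelled Kv1.5. By pooled counts PTPRN2 was 33.6-fold lower in the libraries labelled Kv1.5 than in Kir2.1 (5.71 to 1357), SERPINB5 16.8-fold lower (4.37 to 143) and CLDN11 at least 13.0-fold lower. In the other direction CPA3 and SOBP were each 5.12-fold higher in the libraries labelled Kv1.5, from 8 counts there and 2 counts in Kir2.1 (1.02 to 49.5). Of the 8 counts of SOBP, 7 were in Kv1.5 replicate 3, and replicate 2 stood at 0.0254 CPM beside a Kir2.1 mean of 0.0199 CPM. Both Kir2.1 counts of CPA3 were in replicate 3. IGSF10 was 2.06-fold higher in the libraries labelled Kv1.5 (1.11 to 3.945), from 29 counts beside 18. Smaller falls there were those of HOXB6, 3.01-fold (1.28 to 8.19), VAV1, 2.29-fold (1.22 to 4.54), and ZNF385B, 1.74-fold (1.03 to 3.02). In the libraries labelled Kv1.5 all counts of HOXB6 and VAV1 were in replicate 2. The high counts of SERPINB5 in Kir2.1 came largely from replicate 1, while those of PTPRN2 and CLDN11 were spread over the 3 libraries.

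Within RFP the genes varied in different ways. The ratio of the highest to the lowest RFP library ran from 1.07 for SLC13A4 to 4.67 for SERPINB5, with a median of 1.48. It was under 1.5 for 12 genes and over 2 for 8 (SERPINB5, TM4SF18, PLCH2, CD70, NKX1-2, SNAP25, CPA3 and HCN2). Shares over other genes are not given for these counts. The coefficient of variation had a median of 19.4%, beside 16.9% for the 4116 other protein-coding genes in the same range of mean RFP level. Its upper quartile was 42.9%, beside 25.5% for those other genes, and its highest value 65.2%, beside 131%. RFP replicate 3 was the highest library for 11 of the 24 genes (45.8%), beside 48.8% of those other genes. In 8 genes replicate 1 was lowest and replicate 3 highest, as in TM4SF18 and CD70 (33.3%, beside 36.5% of those other genes), and in 5 the order was turned round, as in SERPINB5 and IGSF10 (20.8%, beside 18.0%). These shares for the order of the libraries lie near those of the other genes, while the upper quartile of the spread does not. No RFP library was the highest or the lowest for all 24 genes.

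The thresholds cut through a run of values. Just inside the RFP threshold lay CPA3, SNAP25 and NOSTRIN, with lowest RFP libraries of 2.18, 2.22 and 2.24 CPM. Just outside lay the neuronal adhesion gene CNTN1, the brain ubiquitin ligase TRIM9 and the proprotein convertase PCSK6, at 1.99, 1.97 and 1.96 CPM. Just inside the channel threshold lay ZNF385B, CLDN11 and PLCH2, with larger channel means of 0.489, 0.485 and 0.455 CPM. Just outside lay the kinase DCLK1 and the actin-severing SCIN, at 0.555 and 0.579 CPM. DCLK1 had a lowest RFP library of 19.0 CPM, above that of every gene of the set but PTPRN2.

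Genes of other types had the same pattern in 8 cases: LINC01748, AC011632.1, AP003049.2, AC027288.3, AC148477.5, AC134312.5, AC087392.1 and SCAT1. AC087392.1 and AC011632.1 had 0 counts in every channel library and averaged 5.10 and 4.39 CPM in RFP. AC148477.5 lies inside GALNT9 on the same strand and averaged 0.233 CPM in Kir2.1, 0.0755 CPM in libraries labelled Kv1.5 and 16.3 CPM in RFP, more than GALNT9 itself. In the opposite direction, 44 protein-coding genes reached at least 2 CPM in every channel library and averaged under 0.5 CPM in RFP.

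Some of the 24 overlap other genes, and with the strand setting of the counting not stated, reads there may be split or shared. DGKG overlaps ETV5, a transcription factor, which averaged 85.3 CPM in Kir2.1, 87.0 CPM in libraries labelled Kv1.5 and 103 CPM in RFP. SLC13A4 overlaps STMP1 (32.7, 19.6 and 24.2 CPM in the same order) and NOSTRIN overlaps SPC25, a kinetochore gene (29.5, 9.63 and 29.1 CPM). IGSF10 overlaps MED12L at 1.93, 2.35 and 4.32 CPM. HOXB6 overlaps HOXB3 on the same strand, so the low values of HOXB6 and HOXB3 are not fully separate.

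The 24 genes were spread over 15 chromosomes, with 5 on chromosome 3 and 3 each on chromosomes 7 and 19. Chromosome 3 held 5.94% of protein-coding genes at 2 CPM or more in every RFP library. CPA3 and TM4SF18 were the closest pair there, 0.469 Mb apart between starts, and IGSF10 lay 2.12 Mb from TM4SF18. CD70 and VAV1 were the closest pair of all, 0.169 Mb apart on chromosome 19, with 4 tested genes between them. Of these, SH2D3A, a signalling adaptor that starts 5.13 kb before VAV1, fell in both comparisons against RFP. The complement gene C3 did not pass the test, with 7.93, 17.9 and 281 CPM in single RFP libraries; its log2 change in Kir2.1 ran from -1.27 to 2.27 over the alternatives. GPR108 and TRIP10 rose in the libraries labelled Kv1.5 by 0.83 and 0.52 on the log2 scale (edgeR adjusted p = 0.0143 and 0.0375). The call of GPR108 was lost without Kv1.5 replicate 2, and that of TRIP10 on column totals and without Kir2.1 replicate 2 or 3, Kv1.5 replicate 3 or any 1 RFP library. The call of SH2D3A in the libraries labelled Kv1.5 was lost without Kv1.5 replicate 3 or RFP replicate 2. Genes of the interval thus moved in both directions in the libraries labelled Kv1.5, by calls that were each lost under some omission of 1 library.

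Genes next to the 24 were tested, since the rule did not use their values. For each gene the nearest tested protein-coding gene on either side within 500 kb was taken, 42 in all. Against RFP in Kir2.1, 4 of 42 fell (9.52%) and 5 rose (11.9%), where 8.26% of all 16687 tested genes fell and 12.2% rose (edgeR quasi-likelihood test, Benjamini-Hochberg adjusted p under 0.05). In the libraries labelled Kv1.5, 7 of 42 fell (16.7%) and 10 rose (23.8%), where 15.6% of all tested genes fell and 18.1% rose. The median neighbour stood at -0.21 in Kir2.1 and -0.09 in the libraries labelled Kv1.5 on the log2 scale, beside -0.01 and 0.02 over all tested genes. The shares of neighbours that fell were thus near the background. The 2 comparisons share the RFP libraries.

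Of the neighbours that fell, SH2D3A stood at 7.21 ± 0.990 CPM in Kir2.1, 10.4 ± 7.80 CPM in libraries labelled Kv1.5 and 27.4 ± 8.98 CPM in RFP. It fell by 1.93 in Kir2.1 on the log2 scale (SE 0.37, edgeR adjusted p = 0.00309). In the libraries labelled Kv1.5 it fell by 1.35 (SE 0.41, edgeR adjusted p = 0.0255), a call lost without Kv1.5 replicate 3 (-0.75) or RFP replicate 2, and a change of -2.37 without Kv1.5 replicate 2. HOXB3, next to HOXB6, fell by 1.59 in Kir2.1 (edgeR adjusted p = 0.0362), a call lost without any 1 Kir2.1 library or RFP replicate 2 or 3. STC2, a secreted glycoprotein gene beside NKX2-5, fell by 1.76 in Kir2.1 (edgeR adjusted p = 0.0384), a call lost without Kir2.1 replicate 2 or 3 or RFP replicate 2 or 3, and stood at -2.44 without Kir2.1 replicate 1. OAT, the mitochondrial ornithine aminotransferase beside NKX1-2, fell by 0.56 in Kir2.1 (edgeR adjusted p = 0.0450), a call lost without any 1 Kir2.1 library, without RFP replicate 2 or 3, and on column totals. NCAPG2, a condensin subunit beside PTPRN2, fell by 1.44 in the libraries labelled Kv1.5 (edgeR adjusted p = 0.00158). NOC4L and GTF2A1 fell there, with log2 changes of -0.80 and -0.76 (edgeR adjusted p = 0.0440 and 0.0460), calls lost under 6 of the 8 omissions of 1 library for each.

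Several neighbours moved the other way. ADGRE1, an adhesion receptor of macrophages beside VAV1, stood at 0.961 ± 0.0941 CPM in Kir2.1, 0.541 ± 0.277 CPM in libraries labelled Kv1.5 and 0.0199 ± 0.0344 CPM in RFP. It rose by 5.502 and 4.74 on the log2 scale (edgeR adjusted p = 0.000343 and 0.00108), over RFP counts in replicate 3 alone; without that library RFP is at 0 and the fitted values, which depend on the prior count, were 8.14 and 7.38, and it was 4.15 for the libraries labelled Kv1.5 without replicate 2. SERPINB7, in the serpin cluster with SERPINB5, rose by 3.11 and 2.61 (edgeR adjusted p = 0.00336 and 0.00928). Its second call was lost without Kv1.5 replicate 2, and without RFP replicate 1 the rises were 4.11 and 3.61. PEX10, a peroxisome assembly gene beside PLCH2, rose by 0.75 and 1.10 (edgeR adjusted p = 0.0145 and 0.00174), and its first call was lost without RFP replicate 1. LHPP, a phosphatase gene beside NKX1-2, rose by 1.31 in Kir2.1 (edgeR adjusted p = 0.0306), a call lost without any 1 Kir2.1 library or RFP replicate 1 or 2. SKIL, an inhibitor of SMAD signalling beside CLDN11, rose by 1.24 in the libraries labelled Kv1.5 (edgeR adjusted p = 0.0107), a call lost without Kv1.5 replicate 3 (0.60) or RFP replicate 2.

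Genes of the same families were tested in the same way. Families were taken by the stem of the gene symbol, which gave 54 tested genes. Against RFP in Kir2.1, 7 of 54 fell (13.0%) and 11 rose (20.4%), with a median log2 change of 0.00. In the libraries labelled Kv1.5, 13 of 54 fell (24.1%) and 18 rose (33.3%), with a median of 0.13. Both shares lie above those over all tested genes given for the neighbours, in both directions. Between the channel groups, 8 of 54 were lower (14.8%) and 9 higher (16.7%) in the libraries labelled Kv1.5, where 7.99% and 8.79% of all tested genes were.

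The HOXB cluster showed this within 1 locus on chromosome 17; its 6 other tested genes are all given here, a choice made after their values were seen. On the side of HOXB6 with the lower-numbered genes, HOXB5 stood at 0.167 ± 0.0256 CPM in Kir2.1, 0.0635 ± 0.0898 CPM in libraries labelled Kv1.5 and 2.09 ± 0.228 CPM in RFP. It fell by 3.63 in Kir2.1 on the log2 scale (SE 0.52, edgeR adjusted p = 0.000505) and by 4.92 in the libraries labelled Kv1.5 (edgeR adjusted p = 0.000274). The second value was -3.97 without Kv1.5 replicate 3 and -9.24 without Kv1.5 replicate 2, which leaves a library with 0 counts and a fitted value that depends on the prior count. HOXB3 fell in the libraries labelled Kv1.5 by 2.74 (edgeR adjusted p = 0.00469), with -4.68 without replicate 2 and -1.94 without replicate 3. HOXB4 stood at -1.31 and -1.53 and did not pass (edgeR adjusted p = 0.0781 and 0.0542).

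On the other side, HOXB7, HOXB8 and HOXB9 rose in the libraries labelled Kv1.5, by 1.601, 2.05 and 2.1 (edgeR adjusted p = 0.00417, 0.00332 and 3.93e-05). In Kir2.1 they stood at -0.10, -0.22 and -0.18 and did not pass the test (edgeR adjusted p = 0.859, 0.754 and 0.559). HOXB9 averaged 16.5 ± 1.33 CPM in Kir2.1, 76.3 ± 6.72 CPM in libraries labelled Kv1.5 and 18.6 ± 3.87 CPM in RFP. Set directly against Kir2.1, the libraries labelled Kv1.5 had log2 differences of 1.70, 2.27 and 2.28 for HOXB7, HOXB8 and HOXB9. As annotated, HOXB7 spans HOXB8 and HOXB9, and HOXB3 spans HOXB4 and HOXB5. Reads may be split or shared there too, so the genes on each side are not fully separate.

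Claudins were given in full in the same way. CLDN4, a tight junction protein of epithelia, stood at 132 ± 6.19 CPM in Kir2.1, 55.2 ± 4.999 CPM in libraries labelled Kv1.5 and 1.04 ± 0.158 CPM in RFP, a rise of 6.97 and 5.78 on the log2 scale (edgeR adjusted p = 5.68e-09 and 1.51e-08). CLDN7 rose by 2.19 and 3.70 (edgeR adjusted p = 0.00390 and 0.000182). CLDN2, a claudin of leaky epithelia that forms cation pores, rose in Kir2.1 by 3.67 (edgeR adjusted p = 0.000964), and by 4.32 without RFP replicate 3. CLDN1 rose in the libraries labelled Kv1.5 by 3.33 (edgeR adjusted p = 3.92e-05), and by 2.69 without their replicate 2. CLDN23 fell in the libraries labelled Kv1.5 by 1.11 (edgeR adjusted p = 0.00599). CLDN3, CLDN12 and CLDN15 did not pass in either comparison. Claudin transcripts were thus low for CLDN11 and high for CLDN4 and CLDN7 in the same channel libraries.

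Among immunoglobulin superfamily genes beside IGSF1 and IGSF10, IGSF3, IGSF9 and IGSF9B fell in both comparisons and IGSF8 rose in both. IGSF9B, an adhesion protein of inhibitory synapses, stood at 0.814 ± 0.356 CPM in Kir2.1, 0.301 ± 0.0771 CPM in libraries labelled Kv1.5 and 9.64 ± 3.37 CPM in RFP, with log2 changes of -3.57 and -4.93 (edgeR adjusted p = 8.38e-05 and 4.21e-05). IGSF3 fell, with log2 changes of -2.92 and -1.07 (edgeR adjusted p = 9.60e-06 and 0.00915). IGSF9 fell, with log2 changes of -3.90 and -2.37 (edgeR adjusted p = 0.00163 and 0.0145), with -5.07 in Kir2.1 without its replicate 2, and its second call was lost without Kv1.5 replicate 2. IGSF8 rose by 1.23 and 1.654 (edgeR adjusted p = 0.000722 and 0.000112).

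Of the O-glycan initiating enzymes related to GALNT9, GALNT18 stood at 24.5 ± 2.23 CPM in Kir2.1, 15.6 ± 2.28 CPM in libraries labelled Kv1.5 and 0.462 ± 0.0571 CPM in RFP, a rise of 5.72 and 5.14 on the log2 scale (edgeR adjusted p = 4.71e-08 and 1.09e-07). GALNT12 rose by 2.44 and 2.49 (edgeR adjusted p = 0.0131 and 0.0105). These calls were lost without Kir2.1 replicate 2 or RFP replicate 2 in Kir2.1 and without Kv1.5 replicate 2 in the other group, and without RFP replicate 3 the rises were 3.20 and 3.24. GALNT16 fell, with log2 changes of -2.75 and -3.31 (edgeR adjusted p = 0.000476 and 0.000330). NKX2-8 and HCN4, relatives of NKX2-5 and HCN2, rose in the libraries labelled Kv1.5 by 5.12 and 4.68 (edgeR adjusted p = 7.96e-05 and 0.000142). In Kir2.1 both stood higher without passing, at 1.46 and 1.61 (edgeR adjusted p = 0.212 and 0.104).

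Genes that methylate or demethylate DNA, bind methylated DNA, or belong to Polycomb and histone-modifying complexes were counted as well (35 tested). Against RFP, 9 of 35 changed in Kir2.1, 3 fell (8.57%) and 6 rose (17.1%), where 20.5% of all tested genes changed in either direction. By direction, 8.26% of all tested genes fell and 12.2% rose. In the libraries labelled Kv1.5, 17 of 35 changed, 8 fell (22.9%) and 9 rose (25.7%), where 33.7% of all tested genes changed. There, 15.6% of all tested genes fell and 18.1% rose. The part of the 35 genes in the levels of the 24 genes was not tested. DNMT3A, a de novo DNA methyltransferase, stood at 5.08 ± 0.609 CPM in Kir2.1, 6.74 ± 1.82 CPM in libraries labelled Kv1.5 and 12.6 ± 0.643 CPM in RFP. It fell by 1.31 in Kir2.1 on the log2 scale (SE 0.23, edgeR adjusted p = 0.00162) and by 0.84 in the libraries labelled Kv1.5 (edgeR adjusted p = 0.0240), a call lost without Kv1.5 replicate 3 or RFP replicate 2.

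JARID2, which helps place Polycomb repressive complex 2, stood at 77.8 ± 14.3 CPM in Kir2.1, 117 ± 30.0 CPM in libraries labelled Kv1.5 and 43.2 ± 6.10 CPM in RFP. It rose by 0.84 and 1.497 (edgeR adjusted p = 0.0127 and 0.000412), the first call lost without Kir2.1 replicate 2 or RFP replicate 2. RBBP7, a histone-binding subunit, rose by 0.70 and 0.61 (edgeR adjusted p = 0.0105 and 0.0216). Its calls were lost without RFP replicate 2 in Kir2.1, and without Kv1.5 replicate 2 or RFP replicate 1 or 2 in the other group. RING1, EZH1 and PHC2, Polycomb subunits, rose by 0.62, 0.64 and 0.65 in Kir2.1 (edgeR adjusted p = 0.0331, 0.0322 and 0.0390), calls lost without any 1 Kir2.1 or RFP library. In the libraries labelled Kv1.5 they rose by 0.68, 0.77 and 0.71 (edgeR adjusted p = 0.0218, 0.0137 and 0.0271), calls lost without Kv1.5 replicate 2 for all 3, and without RFP replicate 1 or 3 for RING1 and RFP replicate 2 or 3 for PHC2. TET2, which oxidises methylcytosine, fell by 0.91 in Kir2.1 (edgeR adjusted p = 0.0478), a call lost under 7 of 8 omissions of 1 library and on column totals. It fell by 1.13 in the libraries labelled Kv1.5 (edgeR adjusted p = 0.0237), a call lost without either of those libraries or RFP replicate 2 or 3. Polycomb genes called only in the libraries labelled Kv1.5 went both ways. EED, EZH2 and PHC1 had log2 changes of -0.89, -0.87 and 0.99 there (edgeR adjusted p = 0.0031, 0.0170 and 0.0401). The largest fall and rise of the 35 there were UHRF1 at -2.32 and KDM6B at 1.85 (edgeR adjusted p = 0.000122 and 0.000518). Calls without each library are not given for these genes.

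RefSeq promoter sequences matched 18 of the 24 genes, as the 250 bases before the start. PTPRN2, CD70, NKX2-5, HOXB6 and SNAP25 were among those with no entry. For IGSF10, GALNT9, IGSF1, ZNF385B and NOSTRIN the bases after the RefSeq start were not found in a GENCODE 29 transcript, so the start used in these cells may differ. The ratio of observed to expected CpG had a median of 0.539 in the 18 promoters, beside 0.836 in 8925 protein-coding genes at 2 CPM or more in every RFP library and 0.742 in all 15320 with an entry. It reached 0.6 in 8 of 18 (44.4%), beside 84.0% of the genes on in RFP and 64.2% of all. GC content had medians of 63.0%, 65.2% and 62.4%. These are descriptions of sequence with no test.

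The 18 promoters fell on both sides of that limit. CPA3, TM4SF18, IGSF10, GPR85, IGSF1, NOSTRIN, VAV1, SLC13A4, SERPINB5 and PLCH2 lay below it, with 0 to 14 CpGs. ZNF385B, DGKG, CLDN11, GALNT9, STON2, NKX1-2, SOBP and HCN2 lay above it, with 18 to 39 CpGs. In the sequences printed above, the capitals show this as 2 isolated CpGs in TM4SF18 and clusters along CLDN11. Of motifs searched on both strands, TATAAA was in 0 of 18 (4.78% of genes on in RFP and 9.19% of all), GGGCGG in 13 (72.2%, beside 69.5% and 56.7%) and TGANTCA in 2, SERPINB5 and SLC13A4 (11.1%, beside 3.55% and 5.01%). A match is letters in this window only.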

How the data were processed

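Poly(A) RNA of 8 cultures was measured. Per the submitters' processing notes, FastQC, Trimmomatic, STAR and edgeR were used with GRCh38. The sources used here name no counting step, strand setting, annotation or version. The authors' deposited table holds whole-number counts per gene, with 0 columns that could not be tied to a sample. The authors' deposited comparison tables give a log2 fold change, a log2 CPM level, p-values and a test score per gene. All 24 genes are listed as lower in both (log2 fold change -11.08 to -2.74 among 1139 genes in the Kir2.1 table, and -11.32 to -3.46 among 2178 in the other). These tables come from the same counts and are no separate evidence.

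Symbols matched 60445 of 60715 IDs, and GENCODE 29 gave gene types and positions for 58497. CPM was computed on column totals. Counts were tested with edgeR 4.0.16 under R 4.3.3 (genes kept by filterByExpr, TMM factors, robust quasi-likelihood F-test, all 8 libraries in 1 fit, 5 residual degrees of freedom), with Benjamini-Hochberg adjustment over 16687 genes. The test was also run on simulated counts with known changes in Kir2.1 only. The comparisons with the libraries labelled Kv1.5 were not checked in this way, and the outcome is not given here. All 24 genes passed the filter. The design had assumed 9 libraries. Pooled-count folds have exact 95% binomial intervals, and a group at 0 is set to 3 counts over the group. Both comparisons against RFP share its libraries.

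The genes, the lists and the tests were chosen with earlier results of these data known. Of the 24 genes 23 are named, with values in every library for the 15 highest in RFP. A few genes that the rules select are not reported here. Neighbour and family genes are named by the 5 largest falls and 5 largest rises called in a comparison, machinery genes by a call in both comparisons, and HOXB and CLDN genes in full. The HOXB and CLDN genes, IGSF8, VAV2, SNAP23, TM4SF1, C3, GPR108 and TRIP10 were added after their values were seen. So were the machinery genes EED, EZH2, PHC1, UHRF1 and KDM6B. Alternatives were RLE factors, column totals, 2 other filters, DESeq2 1.42.0, each library left out, a block for the replicate number, other thresholds and other neighbour windows.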

Additional observations from a re-analysis of the deposited data

Results flagged for a closer look

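For the genes below, the libraries labelled Kv1.5, set directly against Kir2.1 in edgeR, passed an adjusted p under 0.05, so their changes against the shared RFP libraries differed between the channel groups. Values are log2 differences, with positive values higher in the libraries labelled Kv1.5. None of these genes is among the 24.

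In the families, CLDN1 differed by 3.77, CLDN7 by 1.51, CLDN2 by -3.49, CLDN4 by -1.18 and CLDN23 by -0.97. NKX2-8 differed by 3.67, HCN4 by 3.08 and IGSF3 by 1.85. The HOXB genes on the far side of HOXB6 differed by 1.70 (HOXB7), 2.27 (HOXB8) and 2.28 (HOXB9). Among neighbours, 3 of 42 were lower (7.14%) and 7 higher (16.7%), where 7.99% and 8.79% of all tested genes were. Of the named ones, NCAPG2 differed by -1.26, SKIL by 1.54 and STC2 by 1.96. STC2 overlapped between the groups, at 3.30 and 0.937 CPM in libraries labelled Kv1.5 and 1.00, 0.275 and 0.428 CPM in Kir2.1. For single genes, calls of this comparison without each library are not given.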

How the results depend on the processing

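The set has soft edges. It held 27 genes on TMM-scaled CPM, 50 at a RFP minimum of 1 CPM, 6 at a minimum of 5 CPM, 13 with channel means under 0.2 CPM and 52 with channel means under 1 CPM. Leaving out each library gave 22 to 39 genes, the highest without RFP replicate 1. Genes called were 1975 to 4518 in Kir2.1 against RFP under these omissions, 3912 to 5534 in the libraries labelled Kv1.5 against RFP, and 1384 to 3861 between the channel groups. Neighbours called lower numbered 1 to 7 in Kir2.1 and 4 to 8 in the libraries labelled Kv1.5, family genes 5 to 8 and 9 to 13, and machinery genes called 1 to 9 and 10 to 16. A neighbour window of 100 kb, which holds fewer genes, gave 4 lower calls in the libraries labelled Kv1.5. The cause of the other shifts was not tested.

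Deviations from the group mean correlated at 0.181, -0.0938 and 0.157 for same-numbered Kir2.1 and RFP libraries. For differently numbered libraries of these groups the correlations ran from -0.218 to 0.085. With 3 libraries per group, these values do not settle whether the replicate numbers pair the libraries. With the replicate number as a block, 3707 genes were called in Kir2.1 against RFP, 5565 in the libraries labelled Kv1.5 against RFP and 2729 between the channel groups. The calls of VAV2 in the libraries labelled Kv1.5 and of HOXB3 and STC2 in Kir2.1 were lost under the block. IGSF8, EED, EZH2, PHC1, UHRF1 and KDM6B are left aside here. No other called change against RFP of a neighbour, family or machinery gene named above changed direction under the normalization, tool, block and left-out-library alternatives. Of the 64 called changes covered, 34 kept their call under all of these alternatives and 30 lost it under at least 1. Low counts in the channel libraries limit all residual levels.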
